A study of Mus musculus with 16 samples.

Results

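The autosomal transcriptome of UVB-irradiated dorsal skin was compared between male and female mice. The comparison used 8 of the 16 RNA-seq libraries of the series, 4 from irradiated males and 4 from irradiated females, each from the skin of 1 mouse, and 15890 autosomal genes among the 16460 genes that passed a filter on low counts. All mice were wild-type C57Bl/6N animals of 8 weeks, an age at which dorsal hair follicles rest in telogen. The irradiated mice were shaved and exposed to UVB 3 times, every other day, and whole skin was taken 6 h after the third exposure. The other 8 libraries came from 4 unirradiated males and 4 unirradiated females of the same strain and age, and are used only to show where the difference between the sexes in irradiated skin differed from that without UVB. Whole skin pools epidermis, hair follicles, dermis, fat and a muscle layer, so that fewer cells of a type and less RNA per cell cannot be told apart in any value given here.

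UVB is absorbed mainly in the epidermis, where keratinocytes respond to repeated exposure with thickening, faster turnover and a switch of their keratins and cornified envelope proteins to the set used in wounds. Stressed keratinocytes also release alarmins, antimicrobial peptides and interleukin 1 family cytokines that draw in neutrophils and monocytes, and they make prostaglandin E2. Skin further holds resident T cells, Langerhans cells, dermal dendritic cells, mast cells and macrophages, whose numbers can differ between the sexes before any injury.

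Levels are given as counts per 1000000 reads assigned to genes (CPM) after scaling of the libraries by the trimmed mean of M values, in the order of the mouse numbers 1 to 4 of each group. A fold change is the fitted log2 ratio of males to females with its standard error (n = 4 mice a group), and p-values are from edgeR's quasi-likelihood test, adjusted by Benjamini-Hochberg over all genes tested. A gene is called different when its adjusted p is under 0.1 and its log2 fold change is over 1 or under -1, and "passed the test" refers to the adjusted p alone.

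The 8 irradiated libraries held 16495776 to 33404831 reads assigned to genes, with a median of 20086555, and the biological coefficient of variation between mice of a group was 0.118. *Xist*, the transcript of the inactive X chromosome, lay between 1018 and 1209 CPM in the 8 females and between 1.30 and 5.13 CPM in the 8 males of the series, and the summed level of 4 Y-linked genes between 182 and 248 CPM in males and at no more than 0.357 CPM in females, so that the sex labels held in every library. The first principal component of the irradiated libraries carried 48.6% of the variance and had all males between -36.4 and -13.2 and all females between 17.1 and 31.8. Male 2 lay farthest out on that component, and female 2 stood apart on the second, which carried 14.5%.

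Of the 15890 autosomal genes, 215 were called higher in irradiated males (1.35%) and 192 were called lower (1.21%). With the adjusted p alone, 2009 genes (12.6%) were higher and 2034 (12.8%) lower in males, and the median log2 fold change over all genes was -0.0045. Under upper quartile scaling, which set that median at -0.048, the same split was 1490 higher to 2568 lower, or 36.7% higher in place of 49.7%, and small differences of either sign are therefore read relative to the scaling. The calls past the fold threshold were 193 higher and 229 lower under that scaling. Without male 2 there were 187 higher and 178 lower calls, without female 2 there were 260 and 192, and without male 4 the lower calls numbered 289. The levels of the male and the female mice did not overlap for 1916 genes with males above (12.1%) and for 1553 genes with females above (9.77%), and these held 186 of the 215 genes called higher and 149 of the 192 called lower. The filter asked for about 10 reads in as many mice as a group held, and 17 of the genes called higher and 24 of those called lower passed it through the mice of 1 sex alone. Of the genes named below, *Tmprss11a*, *Spink12*, *Csta3*, *Cdhr1* and *Mmp8* passed through the males alone and *Il12b*, *Pgr*, *Wfdc18* and *Hamp* through the females alone, so that a difference in that direction was needed for them to be tested.

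**Figure D1:**
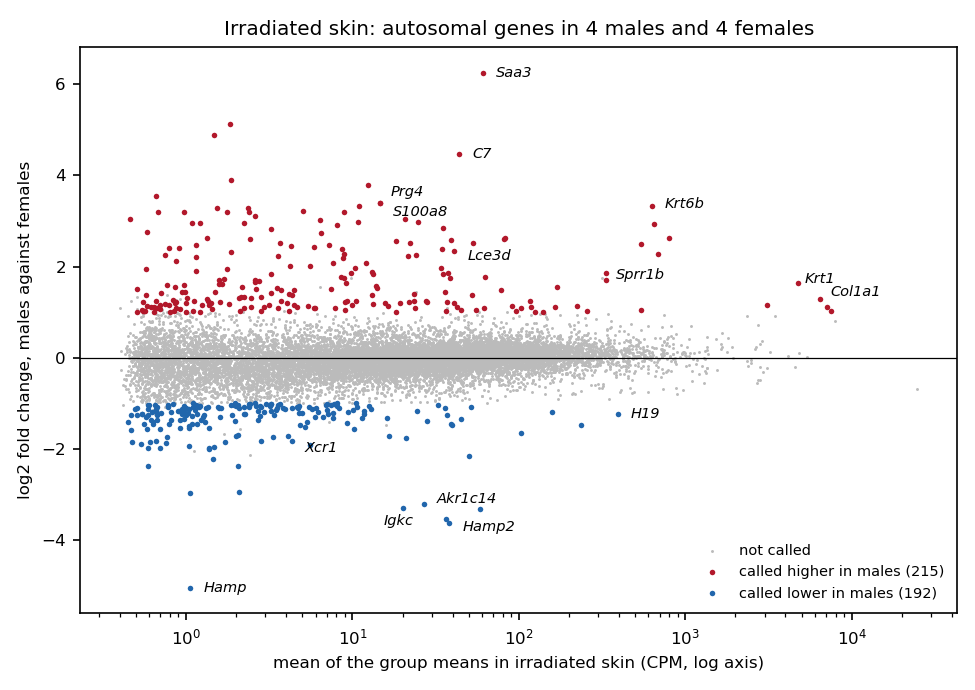
Mean level of each autosomal gene in irradiated skin (CPM, log axis) against its log2 fold change between 4 males and 4 females, with the 215 genes called higher and the 192 called lower in colour. *Krt6b*, *Krt1* and *Col1a1* lie among the higher calls at levels above 100 CPM, and *Saa3* and *Hamp* lie at the upper and lower ends of the vertical axis.

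Keratinocyte stress genes were higher in irradiated males. *Krt6b*, *Krt6a* and *Krt16* encode the keratins that the epidermis makes in wounds and in hyperproliferative disease, and *Krt17* encodes a keratin of the hair follicle and of activated keratinocytes. All 4 passed the test with males above, *Krt17* under part of the alternative settings only, 3 were called, and their median log2 fold change was 2.78, against -0.15 in unirradiated skin. *Krt6b* (chr15:101584458-101588722) stood at 1082, 1718, 782 and 1004 CPM in the males and at 42.6, 104, 178 and 130.0 CPM in the females. The lowest male was thus above the highest female by a wide margin, and the fold change was 3.33 ± 0.45 (adjusted p = 0.0038). *Krt16* (chr11:100136917-100139795) was at 1164, 1579, 803 and 1019 CPM in males and 67.7, 142, 204 and 180.3 CPM in females, a log2 fold change of 2.94 ± 0.35 (adjusted p = 0.002). *Krt6a* (chr15:101598345-101602742), in males at 1348, 1853, 957 and 1303 CPM and in females at 110.2, 165, 328 and 279 CPM, had a fold change of 2.63 ± 0.35 (adjusted p = 0.0031). In unirradiated skin *Krt6b* averaged 2.72 ± 1.105 CPM (SD, n = 4) in males and 3.96 ± 0.676 CPM in females, so that the female level after UVB was itself far above that of the controls. The difference between the sexes in irradiated skin exceeded that in unirradiated skin for *Krt6b* by 3.86 ± 0.59 on the log2 scale (adjusted p = 0.0078), for *Krt16* by 3.12 ± 0.49 (adjusted p = 0.0098) and for *Krt6a* by 2.48 ± 0.51 (adjusted p = 0.025). *Krt17* was at 925, 1006, 791 and 834 CPM in males and 623, 475, 797 and 757 CPM in females, which overlapped, and its fold change was 0.42 ± 0.15 (adjusted p = 0.081), with an adjusted p over 0.1 and up to 0.19 without male 1, 2 or 4 or without female 1 or 2. It was 0.10 in the fit of all 16 mice and under upper quartile scaling, and 0.12 among genes of at least 1 count.

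The cornified envelope genes that are induced in wounded or inflamed skin formed the next group. Of 12 small proline-rich genes tested, whose products are cross-linked into the envelope of dying keratinocytes, 11 passed the test with males above, 10 were called, and the median was 1.69. Of the 12, 7 were also tested without UVB, with medians of 1.49 after and -0.10 without UVB. *Sprr1b* (chr3:92344116-92346096) was at 590.4, 665, 419 and 408 CPM in males and at 80.3, 163, 188 and 140.2 CPM in females, with no overlap (log2 fold change 1.86 ± 0.26, adjusted p = 0.0033). *Sprr2h* (chr3:92292992-92294631) stood at 133, 151, 80.7 and 98.8 CPM against 24.4, 51.0, 45.8 and 43.2 CPM (log2 fold change 1.49 ± 0.26, adjusted p = 0.0085). The paralogs *Sprr2d*, *Sprr2e* and *Sprr2a3* had fold changes of 2.23 ± 0.45, 2.24 ± 0.37 and 2.55 ± 0.45 (adjusted p = 0.016, 0.0047 and 0.011). All 6 late cornified envelope 3 genes were called higher, with a median of 2.98, and *Lce3d* (chr3:92864697-92865812) went from 7.05 to 17.1 CPM in females to 40.5 to 96.2 CPM in males (log2 fold change 2.34 ± 0.34, adjusted p = 0.0049). *Lce3c* was at 118, 130.5, 67.3 and 69.7 CPM in males and 20.7, 38.6, 30.1 and 22.4 CPM in females (log2 fold change 1.78 ± 0.28, adjusted p = 0.0067), while *Lce3e* and *Lce3f* had fold changes of 3.05 ± 0.39 and 3.33 ± 0.50. Of the 14 late cornified envelope 1 genes, which belong to the normal barrier, 1 passed the test with males above (*Lce1f*, 0.96 ± 0.34, adjusted p = 0.095) and 1 with females above (*Lce1m*, -0.75 ± 0.15, adjusted p = 0.0093), and none was called. *Lce1f* no longer passed without male 1, 2 or 3 or without female 1 or 3 (adjusted p of up to 0.22), nor among genes of at least 1 count (0.24), with thinned counts (0.11), without regard to strand (0.10) and under upper quartile scaling (0.11). Reads that map to more than 1 place were not counted, so that the values of near-identical genes (the small proline-rich 2, late cornified envelope 3 and stefin A genes, the keratin 6 pair, the *Hamp* pair and the immunoglobulin genes) are uncertain.

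These envelope genes sit together in the epidermal differentiation complex. Between the genes *S100a1* and *S100a10*, which flank the complex on chromosome 3 (chr3:90418340-93474510, GRCm39, both included), 68 genes were tested and 23 were called higher in males, or 33.8%, against 29 called higher among all 891 genes tested on the chromosome. Of these 23, 17 were small proline-rich or late cornified envelope 3 genes, the pseudogene *Sprr2j-ps*, which is outside the list above, among them, and the others were *S100a8*, *S100a9*, *Rptn*, *Crnn*, *Tchhl1* and the predicted gene *Gm37857*. The median log2 fold change over the 68 genes was 0.68, and the only gene of the interval called lower was the predicted gene *Gm5849*. *Rptn* (chr3:93301006-93306749), which encodes repetin, a precursor protein of the envelope, was at 1300, 1615, 894 and 735 CPM in males and at 203, 241, 277 and 218 CPM in females. The log2 fold change was 2.27 ± 0.23 (adjusted p = 6.50e-04). Its difference exceeded that in unirradiated skin by 2.89 ± 0.43 (adjusted p = 0.0066).

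Promoters of this group are shown because many of them hold the letters bound by the stress-activated factor AP-1. The letters TGANTCA, the AP-1 site with a free central base, were searched on both strands from 250 bases before to 50 bases after each transcription start of RefSeq. They occurred in 8 of the 11 small proline-rich promoters in the table (72.7%), in 0 of the 6 late cornified envelope 3 promoters, in 32 of the 156 promoters listed for genes called higher (20.5%, 138 of 215 genes matched) and in 13 of 151 listed for genes called lower (8.61%, 126 of 192 genes matched). They also occurred in 7 of 25 promoters of interferon-stimulated genes (28%) and in 2 of 6 of class II antigen presentation (33.3%), lists that were lower in males, in 1 of 12 of T cell genes (8.33%) and in 0 of 29 of cell cycle genes, a list that was higher. The share was 5.99% of 14649 promoters of the autosomal genes tested and 7.81% of all 32851 promoters. The 4 windows below run from base -250 to base -11 relative to the start, 5′ to 3′ on the strand of the gene, with the match in capitals, and were read from the RefSeq table (build GRCm38.p6) and placed by exact match in GRCm39. They lie at chr3:92346097-92346336, minus strand, for *Sprr1b*, chr3:92246197-92246436, plus strand, for *Sprr2d*, chr3:92259200-92259439, plus strand, for *Sprr2e*, and chr3:92292742-92292981, plus strand, for *Sprr2h*.
Sprr1b: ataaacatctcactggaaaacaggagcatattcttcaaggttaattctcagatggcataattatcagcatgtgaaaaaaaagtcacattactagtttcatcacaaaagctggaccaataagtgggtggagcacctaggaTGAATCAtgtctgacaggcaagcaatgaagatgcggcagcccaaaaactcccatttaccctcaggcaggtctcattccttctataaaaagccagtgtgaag
Sprr2d: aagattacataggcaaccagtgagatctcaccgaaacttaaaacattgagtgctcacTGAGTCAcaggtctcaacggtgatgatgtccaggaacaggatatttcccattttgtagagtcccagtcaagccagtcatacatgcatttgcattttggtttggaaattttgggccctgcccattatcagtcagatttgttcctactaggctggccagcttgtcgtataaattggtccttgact
Sprr2e: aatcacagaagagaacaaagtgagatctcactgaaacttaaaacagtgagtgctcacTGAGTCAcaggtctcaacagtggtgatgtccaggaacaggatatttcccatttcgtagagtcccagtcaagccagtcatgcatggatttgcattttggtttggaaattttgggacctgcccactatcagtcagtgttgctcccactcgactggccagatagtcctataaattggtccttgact
Sprr2h: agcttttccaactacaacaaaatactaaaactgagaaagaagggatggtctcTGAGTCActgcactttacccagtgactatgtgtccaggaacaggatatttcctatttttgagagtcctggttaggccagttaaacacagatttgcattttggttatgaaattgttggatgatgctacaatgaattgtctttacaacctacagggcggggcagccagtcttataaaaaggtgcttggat
The match began at base -111 in *Sprr1b*, at -193 in *Sprr2d* and *Sprr2e*, and at -198 in *Sprr2h*. The windows of *Sprr2d* and *Sprr2e* hold the same letters around it. *Fosl1*, which encodes the AP-1 subunit FRA-1, was at 7.57, 5.87, 9.50 and 6.62 CPM in males and 1.85, 2.31, 4.89 and 4.32 CPM in females (log2 fold change 1.14 ± 0.28, adjusted p = 0.022), and was the only gene called of 25 immediate early genes, with fold changes of 0.95 and 0.99 without female 1 or 2.

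Stefin A genes were higher in irradiated males too. Of the 7 stefin A genes tested, which encode inhibitors of cysteine proteases, 5 were called higher, and the median was 2.53. Of these 5, 1 passed the filter through the males alone, so that a difference in that direction was needed for it to be tested. Over the 6 genes with at least 10 reads in every mouse the median was 2.51. Of the 7, 4 were also tested without UVB, with medians of 2.12 after and -0.20 without UVB. *Cstdc5* (chr16:36179743-36191595) was at 811, 1549, 708 and 589 CPM in males and 156, 300.3, 140.0 and 52.8 CPM in females (log2 fold change 2.49 ± 0.55, adjusted p = 0.023), and *Stfa1* (chr16:36093823-36105817) at 70.1, 156, 64.2 and 70.3 CPM and 12.2, 23.0, 16.8 and 9.76 CPM (log2 fold change 2.53 ± 0.38, adjusted p = 0.0065). In both genes male 2 was the highest mouse and the sexes did not overlap. *Tmprss11b* (chr5:86805490-86824221), a membrane serine protease of stratified epithelia, was at 26.4, 31.3, 18.9 and 15.6 CPM in males and 1.29, 3.14, 1.54 and 0.418 CPM in females. This gave a log2 fold change of 3.79 ± 0.43 (adjusted p = 0.0017). The low-level genes *Tmprss11a*, *Csta3* and the protease inhibitor gene *Spink12* had fold changes of 5.13 ± 0.58, 3.89 ± 0.47 and 4.87 ± 1.12 (adjusted p = 8.95e-04, 0.0012 and 0.021), and for *Spink12*, which had at most 3 reads in any female, the fold change was 4.41 or more when each female was set at 3 reads. Male 2 carried much of this value, and without it the bound was 2.98 and the fitted fold change 3.56. Without female 2 the fold changes of *Tmprss11a* and *Tmprss11b* were 6.09 and 4.39, and with reads counted without regard to strand that of *Tmprss11a* was 2.52. The transglutaminase gene *Tgm3* was at 67.2, 71.4, 48.8 and 49.3 CPM in males and 14.5, 18.0, 22.8 and 15.3 CPM in females. Its log2 fold change was 1.74 ± 0.17 (adjusted p = 4.66e-04).

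General markers of the epidermis were higher in males by smaller amounts. Of 24 basal and suprabasal epidermal genes tested, 13 were higher and 1 lower in males with the adjusted p alone, 5 were called higher, and the median was 0.51 against 0.06 without UVB. *Krt1* (chr15:101753861-101759229), the main suprabasal keratin with its partner keratin 10, was at 7784, 8610, 7285 and 5190 CPM in males and 2221, 2766, 2775 and 1535 CPM in females. On the log2 scale the difference was 1.63 ± 0.21 (adjusted p = 0.0015). *Krt14* (chr11:100093988-100098490), the basal keratin, stood at 3989, 5684, 3976 and 3530 CPM and 1808, 1659, 2241 and 1928 CPM (log2 fold change 1.17 ± 0.16, adjusted p = 0.0018). *Casp14*, a caspase of terminal differentiation, had a fold change of 1.02 ± 0.29 (adjusted p = 0.046), and its adjusted p was between 0.10 and 0.11 without male 1 or 2 or without female 3, and 0.16 among genes of at least 1 count. Its fold change was under 1 in 5 of the refits, down to 0.82 without female 4. The summed level of the 24 genes ran from 35950 to 47770 CPM in irradiated males and from 24980 to 31250 CPM in irradiated females, and the part of this difference in the levels of the stress keratins and envelope genes was not tested.

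**Figure D2:**
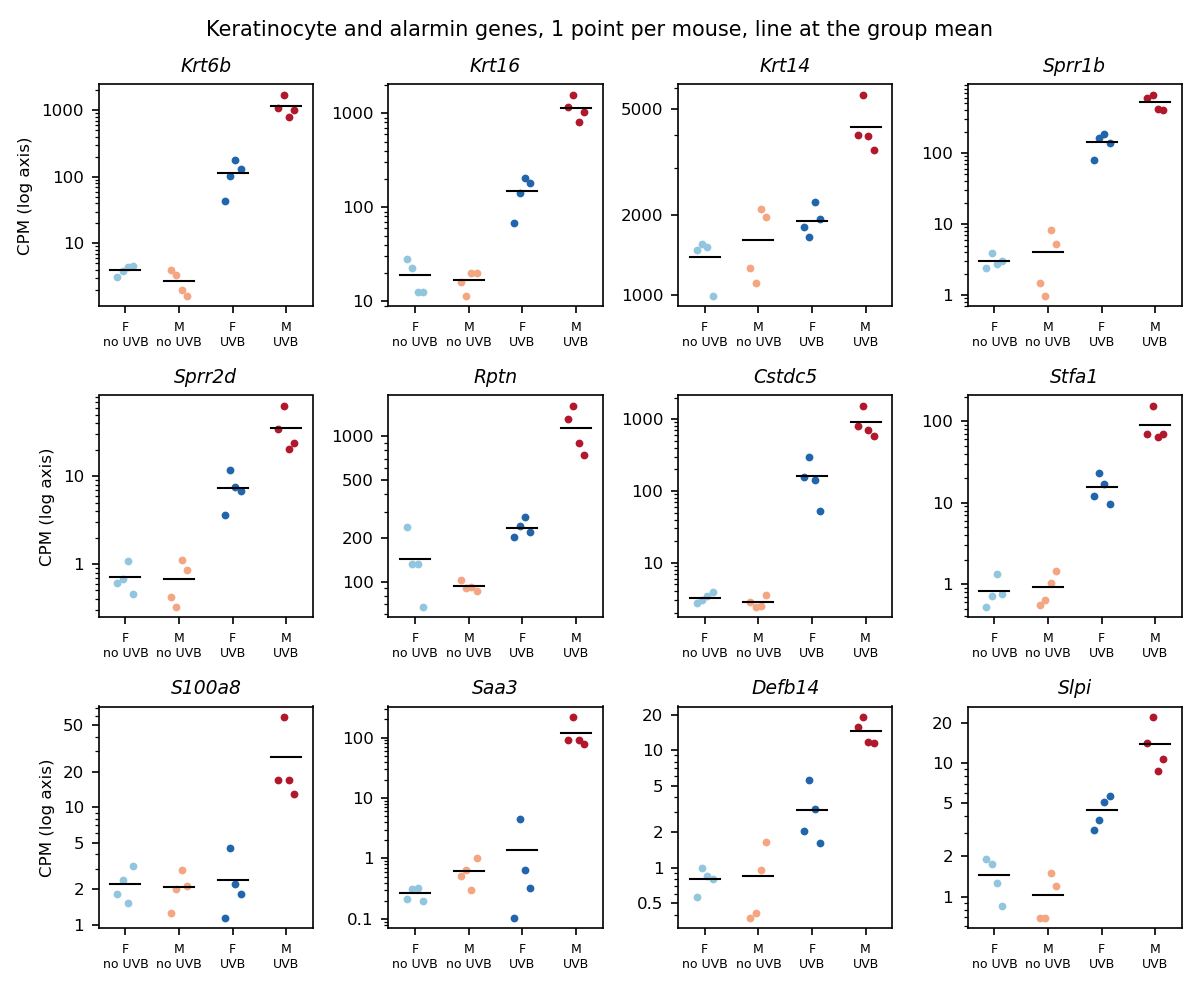
Levels of 12 keratinocyte and alarmin genes (CPM, log axis), with 1 point per mouse and a line at the mean of each of the 4 groups. In irradiated skin every male point lies above every female point in all 12 panels.

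Alarmins and antimicrobial genes were also higher in irradiated males. Of 17 genes tested in this list, 11 were higher and 2 lower with the adjusted p alone, 9 were called higher, and the median was 1.65. Of these 9, 1 passed the filter through the males alone, so that a difference in that direction was needed for it to be tested. Over the 12 genes also tested in unirradiated skin the median was 0.68, against 0.01 there. Among the genes with at least 10 reads in every mouse the median was 0.68 as well. *Saa3* (chr7:46361422-46365576), an acute-phase serum amyloid made in inflamed tissue, had the largest fold change of all genes named here, with 91.0, 222, 89.4 and 77.9 CPM in males and 0.103, 4.54, 0.643 and 0.326 CPM in females. The fitted log2 fold change was 6.25 ± 0.84 (adjusted p = 0.0061). Both male 2 and female 2 were far above the other mice of their sex, yet the highest female stayed below the lowest male, and the fold change was 8.30 without female 2. *S100a8* (chr3:90567118-90578128) and *S100a9* (chr3:90599931-90603071), the subunits of calprotectin, are made by neutrophils and by stressed keratinocytes. *S100a8* was at 17.2, 59.5, 17.1 and 12.9 CPM in males and 1.13, 4.51, 2.23 and 1.81 CPM in females (log2 fold change 3.39 ± 0.65, adjusted p = 0.015), and *S100a9* at 27.8, 79.9, 27.9 and 23.7 CPM and 9.52, 8.62, 8.66 and 6.23 CPM (log2 fold change 2.25 ± 0.43, adjusted p = 0.013). Male 2 was far above the other males for both, and without it the fold changes were 2.65 and 1.68. *Defb14*, a beta-defensin, was at 15.6, 19.3, 11.6 and 11.5 CPM in males and 2.06, 5.62, 3.13 and 1.63 CPM in females. The log2 fold change was 2.18 ± 0.34 (adjusted p = 0.0044). The secreted protease inhibitor gene *Slpi* had a fold change of 1.65 ± 0.30 (adjusted p = 0.0078), and *Lcn2*, which encodes a lipocalin that binds iron carriers of bacteria, a fold change of 0.86 ± 0.19 (adjusted p = 0.014). *Wfdc12* differed by 2.47 ± 0.21 (adjusted p = 1.23e-04), and it did so by 2.35 ± 0.30 in unirradiated skin as well (adjusted p = 0.0019).

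Neutrophil markers were in part higher in males and in part too low to test. Of 21 markers, 12 passed the filter, 6 of these were higher in males and 1 was lower, and 5 were called higher, among them *S100a8* and *S100a9*. *Cxcr2*, the receptor that guides neutrophils, was at 6.01, 6.25, 5.12 and 5.58 CPM in males and 3.55, 3.61, 4.16 and 2.60 CPM in females. This gave a log2 fold change of 0.72 ± 0.15 (adjusted p = 0.011). *Mmp8*, the neutrophil collagenase, and the C-type lectin receptor genes *Clec4d* and *Clec4e* had fold changes of 2.47 ± 0.28, 1.31 ± 0.25 and 1.44 ± 0.19 (adjusted p = 7.16e-04, 0.008 and 0.0017) at levels of no more than 3.57 CPM. *Mmp8* was tested only because it passed the filter in the males. The summed level of all 21 markers, those below the filter included, was 131.5 to 229.7 CPM in males and 93.1 to 100.5 CPM in females. The 9 markers below the filter had at most 15 reads in any male and 26 in any female, *Ly6g*, the antigen used to stain neutrophils, had 0 reads in all 8 mice, and *Mpo* and *Elane* had 15 reads or fewer in each. These low markers leaned either way. *Ltf*, the lactoferrin gene, had 1 to 4 reads in the males and 7 to 16 in the females, and *Ngp* had 1 read over all males and 26 in 1 female. *Elane* had 23 reads over all males and 31 over all females. *Trem1*, *Stfa2l1*, *Fpr1* and *Mpo* had 32, 16, 10 and 23 reads over all males and 10, 6, 3 and 15 over all females. The part of neutrophils in the calprotectin levels was not tested.

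Interleukin 36 cytokines, which keratinocytes release in psoriatic skin, were higher in irradiated males. Of 15 genes of the family tested, 9 were higher and 1 lower in males with the adjusted p alone, 2 were called higher, and the median was 0.41. *Il36a* was at 83.2, 101, 68.0 and 49.2 CPM in males and 27.2, 48.0, 27.6 and 12.7 CPM in females (log2 fold change 1.37 ± 0.39, adjusted p = 0.048), a difference that missed the threshold without male 1 or without female 1 or 3 (adjusted p of up to 0.12) and among genes of at least 1 count (0.14). *Il36b* stood at 136, 142, 115 and 108 CPM and 56.7, 83.1, 56.8 and 32.0 CPM (log2 fold change 1.13 ± 0.25, adjusted p = 0.018, but 0.93 without female 4). The sexes did not overlap for either gene. *Il36g* and the antagonist gene *Il36rn* had fold changes of 0.57 ± 0.13 and 0.84 ± 0.14 (adjusted p = 0.015 and 0.0039), and *Il1b*, the classic inflammasome product, was at 7.94, 8.81, 11.5 and 9.49 CPM in males and 4.58, 5.37, 6.39 and 8.37 CPM in females (log2 fold change 0.60 ± 0.18, adjusted p = 0.043), and up to 0.12 without male 3 or female 1.

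Chemokines that passed the filter went the other way. Of 26 tested, 1 was higher and 10 were lower in irradiated males with the adjusted p alone, 2 were called lower, and the median was -0.30, with -0.37 in unirradiated skin. *Ccl5*, which attracts T cells, was at 3.40, 1.72, 1.58 and 3.39 CPM in males and 7.87, 8.51, 4.20 and 8.04 CPM in females. On the log2 scale the difference was -1.47 ± 0.29 (adjusted p = 0.0098). *Ccl19* and *Ccl21a*, the ligands of the homing receptor CCR7, had fold changes of -1.05 ± 0.25 and -0.62 ± 0.11 (adjusted p = 0.019 and 0.0048), of which *Ccl19* was at -0.90 without female 4 or with thinned counts and at -0.87 without male 3, and *Cxcl10*, induced by interferons, a fold change of -0.63 ± 0.13 (adjusted p = 0.0098, but 0.26 in the fit of all 16 mice). The monocyte attractant *Ccl2* was at 9.12, 11.6, 7.18 and 8.08 CPM in males and 7.05, 8.76, 9.21 and 10.7 CPM in females, which overlapped fully (log2 fold change 0.00 ± 0.16, adjusted p = 1). It was lower in males without UVB (-0.87 ± 0.16, adjusted p = 0.014). The neutrophil attractants *Cxcl2*, *Cxcl3* and *Cxcl5* did not pass the filter, with at most 33 reads in any irradiated male and 12 in any irradiated female. Their summed reads were 60, 7 and 3 in the males and 24, 4 and 1 in the females. *Ppbp* and *Cxcl11*, also below the filter, had 45 and 33 reads in the males and 25 and 35 in the females.

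Genes of prostaglandin synthesis differed in both directions. Of 21 tested, 6 were higher and 4 lower in males, beside 12.6% and 12.8% of all autosomal genes. The median was -0.013, and 1 gene was called. *Ptgs2*, the inducible cyclooxygenase, was at 7.91, 7.34, 10.4 and 6.46 CPM in males and 2.16, 2.63, 6.00 and 4.28 CPM in females, with the lowest male just above the highest female (log2 fold change 1.09 ± 0.28, adjusted p = 0.028, but 0.12 among genes of at least 1 count). The fold change was between 0.91 and 0.94 without female 1 or 2 or without male 3. In unirradiated skin the fold change of *Ptgs2* was 1.02 ± 0.23 (adjusted p = 0.036), and the change between them was 0.06 ± 0.41 (adjusted p = 0.95). *Ptges*, the terminal prostaglandin E2 synthase, stood at 97.2, 99.9, 87.2 and 106 CPM and 60.3, 62.0, 63.7 and 74.2 CPM (log2 fold change 0.58 ± 0.08, adjusted p = 0.0022), and its difference exceeded that without UVB by 0.70 ± 0.13 (adjusted p = 0.016). The phospholipase gene *Pla2g4f* was higher in males by 0.91 ± 0.09 (adjusted p = 3.16e-04), whereas *Tbxas1*, the thromboxane synthase of platelets and macrophages, was at 6.76, 6.25, 4.59 and 7.72 CPM in males and 9.78, 14.2, 9.52 and 10.1 CPM in females. Its log2 fold change was -0.79 ± 0.17 (adjusted p = 0.013).

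Cell cycle genes were higher in irradiated males by small amounts. Of 35 tested, 30 passed the test with males above and none with females above, their median was 0.50 against 0.05 in unirradiated skin, none was past the fold threshold, and the sexes did not overlap for 29. *Rrm2*, a subunit of ribonucleotide reductase, was at 38.5, 41.9, 33.3 and 39.4 CPM in males and 22.5, 23.8, 26.1 and 25.1 CPM in females. The fitted log2 fold change was 0.65 ± 0.08 (adjusted p = 0.0014). The replication helicase gene *Mcm5* stood at 44.6, 53.4, 47.1 and 50.4 CPM and 28.1, 31.1, 34.8 and 34.4 CPM (log2 fold change 0.60 ± 0.09, adjusted p = 0.0022), and the thymidine kinase gene *Tk1* at 17.7, 18.9, 16.8 and 17.1 CPM and 11.8, 12.8, 11.1 and 10.7 CPM (log2 fold change 0.60 ± 0.09, adjusted p = 0.0022). The summed level of the 35 genes was 1056 to 1204 CPM in males and 730.8 to 880.4 CPM in females. The median of the list lay between 0.45 and 0.55 under every alternative setting.

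Lipid synthesis followed the same direction. Of 23 barrier lipid genes, 17 were higher in males and none lower (median 0.30, against -0.0045 without UVB), and of 21 cholesterol synthesis genes 16 were higher and none lower (median 0.35, against 0.23). *Elovl3*, an elongase of very long fatty acids, was at 326, 238, 289 and 320.5 CPM in males and 202, 109.8, 139 and 159 CPM in females. The log2 fold change was 0.95 ± 0.17 (adjusted p = 0.0069). *Cers3* and *Alox12b*, the ceramide synthase and lipoxygenase that build the water barrier, differed by 0.87 ± 0.12 and 0.57 ± 0.08 (adjusted p = 0.0022 and 0.002), and *Degs2*, which makes phytoceramides, was the only barrier lipid gene called (1.23 ± 0.27, adjusted p = 0.02). *Hsd17b7* and *Idi1*, enzymes of the sterol pathway, had fold changes of 0.95 ± 0.14 and 0.78 ± 0.10 (adjusted p = 0.0024 and 0.0015). For *Hsd17b7* the fold change without UVB was 1.37 ± 0.19 (adjusted p = 0.0047). Among 19 NRF2 targets and metallothioneins, 8 were higher and 1 lower. *Slc7a11*, the cystine importer that feeds glutathione synthesis, was at 8.44, 10.8, 6.12 and 3.60 CPM in males and 1.24, 1.01, 1.80 and 1.25 CPM in females. This gave a log2 fold change of 2.44 ± 0.33 (adjusted p = 0.0019). It differed by -0.41 ± 0.27 without UVB (adjusted p = 0.42), and the change was 2.84 ± 0.46 (adjusted p = 0.0074). *Gsta4*, a glutathione transferase for lipid peroxidation products, was the other gene of the list called (1.21 ± 0.12, adjusted p = 3.64e-04). *Pdss1*, which makes the tail of coenzyme Q and belongs to none of these lists, was at 61.0, 45.8, 53.1 and 51.0 CPM in males and 16.1, 21.9, 18.9 and 20.8 CPM in females (log2 fold change 1.44 ± 0.11, adjusted p = 5.94e-05), against -0.06 ± 0.12 without UVB.

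Markers of lymphocytes and of antigen-presenting cells were lower in irradiated males. Of 21 T cell genes tested, 15 were lower and none higher with the adjusted p alone, 6 were called lower, and the median was -0.81, with -0.66 in unirradiated skin. *Trac*, the constant part of the T cell receptor alpha chain, was at 3.08, 2.42, 2.27 and 3.75 CPM in males and 9.73, 8.76, 5.01 and 7.35 CPM in females. On the log2 scale the difference was -1.41 ± 0.22 (adjusted p = 0.0033). *Cd3e*, the invariant receptor subunit, stood at 5.11, 3.51, 3.85 and 5.47 CPM and 9.68, 8.15, 9.04 and 9.39 CPM (log2 fold change -1.0 ± 0.15, adjusted p = 0.0023), and *Cd8a* at 9.81, 5.49, 5.28 and 11.6 CPM and 19.04, 23.8, 13.0 and 15.02 CPM (log2 fold change -1.13 ± 0.28, adjusted p = 0.024). The sexes did not overlap for any of these 3 genes. *Ctla4*, an inhibitory receptor of regulatory T cells, differed by -1.07 ± 0.22 (adjusted p = 0.01). The fold changes of 2 of these calls fell short of the limit without single mice, *Cd8a* with -0.95 to -0.9955 without female 2 or male 2 or 3, and *Ctla4* with -0.95 and -0.98 without female 1 or male 1, and *Cd8a* had an adjusted p of 0.11 among genes of at least 1 count. The summed level of the 21 genes was 103.6 to 134.6 CPM in males and 152.6 to 203.2 CPM in females. None of the 21 passed the test for a change of the difference with UVB. Few genes did in all, with 2.74% of all autosomal genes changed in the higher and 4.3% in the lower direction.

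Dendritic cell genes were lower in males as well. Of 10 genes, 8 were lower in males and none higher, and 2 were called. *Xcr1*, the chemokine receptor of conventional type 1 dendritic cells, was at 2.21, 1.40, 1.64 and 2.19 CPM in males and 7.87, 5.84, 6.43 and 6.93 CPM in females. The fitted log2 fold change was -1.83 ± 0.17 (adjusted p = 2.32e-04). *Clec9a*, a lectin of the same cells, stood at 1.09, 0.893, 0.898 and 1.41 CPM and 3.19, 2.38, 2.44 and 3.35 CPM (log2 fold change -1.39 ± 0.21, adjusted p = 0.0028). In unirradiated skin the fold changes were -1.32 ± 0.34 for *Xcr1* and -1.01 ± 0.29 for *Clec9a* (adjusted p = 0.062 and 0.084). *Flt3l*, the growth factor on which these cells depend, was at 9.69, 9.44, 10.6 and 10.3 CPM in males and 22.2, 17.2, 18.0 and 20.8 CPM in females (log2 fold change -0.97 ± 0.10, adjusted p = 4.66e-04), and *Il12b*, a cytokine subunit they make, differed by -1.74 ± 0.35 (adjusted p = 0.0089). *Cd207*, which encodes the langerin of Langerhans cells, was at 12.9, 9.38, 14.3 and 16.6 CPM in males and 27.6, 19.4, 25.4 and 29.3 CPM in females. The log2 fold change was -0.93 ± 0.17 (adjusted p = 0.0065). Of 8 Langerhans cell genes tested, 5 were lower in males, *Cd207* and the class II gene *Cd74* among them. *Tnfaip2*, *Plek* and *Epcam* did not pass the test, with fold changes of 0.20, 0.09 and 0.07. All 8 genes of class II antigen presentation were lower in males (median -0.68, against -0.25 without UVB), with *H2-Aa* at 431, 412, 400.1 and 542 CPM and 744, 727, 688 and 852 CPM (log2 fold change -0.76 ± 0.11, adjusted p = 0.0025) and *Cd74*, the invariant chain, differing by -0.70 ± 0.13 (adjusted p = 0.0067). Mast cell genes were lower for 9 of 12 and higher for none (median -0.63), with a summed level of 267.6 to 310.9 CPM in males and 378.2 to 543.0 CPM in females. Of 10 melanocyte genes, *Kit* and the lineage factor gene *Sox10* were lower in males by -0.63 ± 0.09 and -0.48 ± 0.13 (adjusted p = 0.002 and 0.033, the latter 0.10 without male 1). The receptor gene *Kit* is shared with mast cells, and *Sox10* is also on the nerve and Schwann cell list. No other gene of the 10 passed the test with males below. The melanosome gene *Mlana* was higher by 0.56 ± 0.21 (adjusted p = 0.088), which did not hold, with an adjusted p of up to 0.22, without 6 of the mice in turn (males 2, 3 and 4 and females 1, 2 and 3), nor in the fit of all 16 mice (0.17), with thinned counts (0.19) and under upper quartile scaling (0.11). The summed level of all 13 melanocyte genes, those below the filter included, was 135.6 to 158.1 CPM in males and 151.2 to 181.6 CPM in females. *Mcpt4*, a chymase of connective tissue mast cells, and *Mrgprb1*, a receptor gene of the same cells, had fold changes of -0.63 ± 0.09 and -0.88 ± 0.11 (adjusted p = 0.0023 and 0.0011).

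Immunoglobulin transcripts were lower in irradiated males and spread widely among the females. Of 18 B cell and plasma cell genes, 10 passed the filter, 7 of these were lower in males, 6 were called lower, and the median was -1.98. *Igkc*, the kappa light chain, was at 9.25, 3.00, 2.59 and 7.66 CPM in males and 21.7, 10.4, 57.4 and 182 CPM in females. This gave a log2 fold change of -3.52 ± 1.03 (adjusted p = 0.062). *Igha*, the IgA heavy chain, stood at 15.3, 4.21, 7.02 and 15.2 CPM and 30.0, 13.9, 87.9 and 292 CPM (log2 fold change -3.30 ± 1.05, adjusted p = 0.079), and *Jchain*, which links IgA dimers, at 4.83, 1.79, 2.48 and 5.37 CPM and 11.7, 5.41, 29.3 and 100.1 CPM (log2 fold change -3.29 ± 1.02, adjusted p = 0.073). Females 3 and 4 carried the high values, female 2 lay within the range of the males or just above it, and the fold changes without female 4 were -2.36 for *Igkc*, -2.05 for *Igha* and -2.06 for *Jchain*. None of these 3 calls held without each of the males in turn, *Igha* and *Jchain* also missed it without female 3 and *Igha* without female 4, with adjusted p-values of up to 0.16. Among genes of at least 1 count the 3 adjusted p-values were 0.13, 0.16 and 0.15. *Ighg1* differed by -2.95 ± 0.54 (adjusted p = 0.0076), and by -3.88 without male 4. The 8 genes of the list below the filter, *Cd79a* and *Ms4a1* of B cells among them, had at most 18 reads in any male and 42 in any female.

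Interferon-stimulated genes were lower in irradiated males. Of 31 tested, 21 were lower and none higher with the adjusted p alone, none was past the fold threshold, and the median was -0.39, with -0.57 and 11 lower in unirradiated skin. *Gbp3*, a guanylate-binding protein gene, was at 24.7, 26.1, 25.8 and 34.4 CPM in males and 44.9, 55.9, 39.2 and 41.4 CPM in females (log2 fold change -0.72 ± 0.13, adjusted p = 0.0068), and *Zbp1*, a sensor of Z-form nucleic acids, at 16.9, 16.8, 16.6 and 21.1 CPM and 25.4, 27.4, 23.4 and 23.6 CPM (log2 fold change -0.49 ± 0.10, adjusted p = 0.0089). The core of the interferon response element, 2 copies of GAAA with 2 free bases between them, was found on either strand in 15 of 25 promoters of these genes (60%), 3.44% of all promoters, 2.56% of those of genes called higher and 6.62% of those of genes called lower. The promoter of *Cxcl10* (chr5:92496759-92496998, minus strand, GRCm39) is shown as an example, from base -250 to base -11, with the match at base -213 in capitals.
Cxcl10: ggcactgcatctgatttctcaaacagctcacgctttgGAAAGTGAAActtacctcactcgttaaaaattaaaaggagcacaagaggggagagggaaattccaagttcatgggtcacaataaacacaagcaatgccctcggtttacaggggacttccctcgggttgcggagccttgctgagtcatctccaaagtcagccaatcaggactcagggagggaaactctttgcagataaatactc
Among 25 monocyte and macrophage markers, 2 were higher and 3 lower with the adjusted p alone, a share at or below that of all genes in either direction, and their median was -0.098. *Chil3*, a chitinase-like protein of activated macrophages and neutrophils, was called higher, at 5.45, 3.77, 1.79 and 1.36 CPM in males and 0.566, 1.01, 0.557 and 0.326 CPM in females (log2 fold change 2.31 ± 0.48, adjusted p = 0.012). The Fc receptor gene *Fcgr1* differed by 0.40 ± 0.14 (adjusted p = 0.082), with an adjusted p over 0.1 without 6 of the mice in turn (up to 0.21), in the fit of all 16 mice (0.41) and under upper quartile scaling (0.12). *Retnla*, which alternatively activated macrophages secrete, was at 126, 77.8, 117 and 179.8 CPM in males and 291, 602, 239 and 262 CPM in females (log2 fold change -1.48 ± 0.36, adjusted p = 0.028), with female 2 far above the others. *Ear2*, an eosinophil-associated ribonuclease gene, stood at 25.2, 21.9, 20.1 and 16.3 CPM and 58.9, 71.1, 52.9 and 46.7 CPM (log2 fold change -1.46 ± 0.15, adjusted p = 5.44e-04), and the adhesion receptor gene *Adgre4*, of mononuclear phagocytes, differed by -1.29 ± 0.13 (adjusted p = 4.25e-04) with a change of -0.97 ± 0.18 from unirradiated skin (adjusted p = 0.017).

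**Figure D3:**
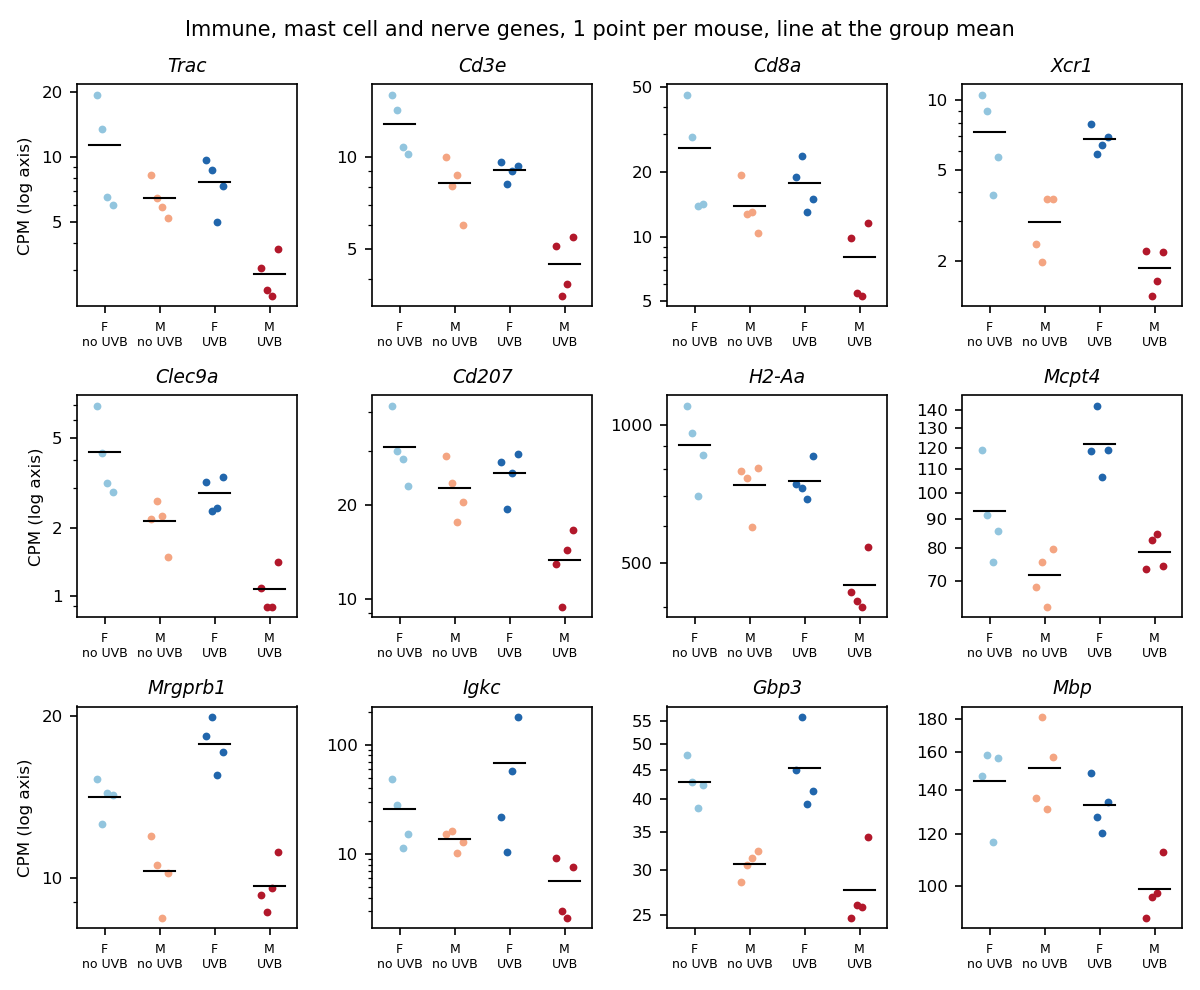
Levels of immune, mast cell and nerve genes (CPM, log axis), with 1 point per mouse and a line at the mean of each of the 4 groups. In irradiated skin every male point lies below every female point in all 12 panels, and the *Igkc* points of the irradiated females run from 10.4 to 182 CPM.

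The dermis differed in collagen. Of 24 fibroblast collagen and matrix genes, 9 were higher and 2 lower in irradiated males, 4 were called higher, and the median was 0.14. *Col1a1* and *Col1a2* encode the chains of type I collagen. *Col1a1* (chr11:94827050-94843868) was at 8268, 7961, 11820 and 8812 CPM in males and 2445, 5036, 3453 and 4106 CPM in females. On the log2 scale the difference was 1.29 ± 0.22 (adjusted p = 0.0042). In unirradiated skin it averaged 29610 ± 1642 CPM in males and 5069 ± 171 CPM in females, so that the difference was smaller after UVB by -1.25 ± 0.26 (adjusted p = 0.022). *Col1a2*, *Col3a1* and the collagen cross-linking enzyme gene *Lox* had fold changes of 1.11 ± 0.19, 1.03 ± 0.26 and 1.01 ± 0.13 in irradiated skin (adjusted p = 0.0051, 0.024 and 0.0017). These 3 calls lay near the limit. The fold change was under 1 for *Col1a2* without female 1 or male 3 (0.99 and 0.98), for *Col3a1* without female 1, 3 or 4 or male 3 and under upper quartile scaling (0.85 to 0.98), and for *Lox* without female 1 or male 2 or 3, with thinned counts and under upper quartile scaling (0.92 to 0.98), and the adjusted p of *Col3a1* was 0.12 among genes of at least 1 count. *Sparc*, a collagen-binding matrix protein gene, differed by 0.91 ± 0.17 (adjusted p = 0.0073) after 2.28 ± 0.14 without UVB, a change of -1.38 ± 0.22 (adjusted p = 0.0074). The summed level of the 24 genes was 37340 to 49980 CPM in irradiated males, 17840 to 31990 CPM in irradiated females, 96500 to 106600 CPM in unirradiated males and 26910 to 28880 CPM in unirradiated females. Among matrix metalloproteinases and their inhibitors, 5 of 19 were higher and 2 lower. *Mmp3*, stromelysin, was at 131, 183, 157 and 183 CPM in males and 60.6, 97.1, 63.5 and 54.4 CPM in females. Its log2 fold change was 1.24 ± 0.18 (adjusted p = 0.0032).

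Fat and nerve markers were lower in irradiated males. Of 18 adipocyte genes, 12 were lower and none higher (median -0.65, against -0.11 without UVB). *Lipe*, the hormone-sensitive lipase, was at 163, 145, 136 and 185 CPM in males and 293, 352, 183 and 240.4 CPM in females (log2 fold change -0.77 ± 0.18, adjusted p = 0.02), and *Pparg*, the master regulator of fat cells, differed by -0.48 ± 0.12 (adjusted p = 0.025). *Nnat*, neuronatin, an imprinted gene expressed in fat, was the called member, at 12.6, 8.10, 32.7 and 21.4 CPM and 92.4, 77.5, 61.9 and 97.2 CPM (log2 fold change -2.14 ± 0.39, adjusted p = 0.011). Of 11 nerve and Schwann cell genes, 10 were lower in males (median -0.44, against 0.02), with the myelin gene *Mbp* at -0.43 ± 0.09 (adjusted p = 0.0098). Skeletal muscle genes had a median of -0.20 in irradiated and 0.44 in unirradiated skin, and the difference fell with UVB for 11 of 19. Only 3 of them were lower in irradiated males with the adjusted p alone, among them the fast-fibre actinin gene *Actn3*, which differed by -0.45 ± 0.12 (adjusted p = 0.03) after 0.77 ± 0.19 without UVB (adjusted p = 0.054). The summed level of the 19 muscle genes was 23630 to 27190 CPM in irradiated males and 22860 to 32620 CPM in irradiated females.

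Several genes outside these groups differed strongly between the sexes, many of them also without UVB. *C7* (chr15:5017233-5093252), a component of the complement attack complex, was at 65.4, 90.9, 88.3 and 90.1 CPM in irradiated males and 4.63, 3.89, 3.34 and 3.16 CPM in irradiated females, and had the smallest p of all autosomal genes (log2 fold change 4.47 ± 0.15, adjusted p = 1.04e-08). Its fold change without UVB was 5.53 ± 0.26 (adjusted p = 1.34e-05). *Serpina3m*, a serine protease inhibitor, differed by 3.29 ± 0.30 and 3.33 ± 0.41 in irradiated and unirradiated skin (adjusted p = 2.32e-04 and 0.0027), and *Serpinb6c* by 1.24 ± 0.07 and 2.77 ± 0.16 (adjusted p = 2.61e-06 and 1.34e-05). Its neighbour in the serpin B6 family, *Serpinb6e*, went the other way, at 60.3, 35.03, 52.9 and 52.8 CPM in irradiated males and 157, 151, 145 and 175 CPM in irradiated females (log2 fold change -1.64 ± 0.14, adjusted p = 2.13e-04). *Prg4*, which encodes the lubricant lubricin, was at 15.6, 43.6, 27.2 and 21.4 CPM in males and 1.85, 3.93, 1.84 and 2.33 CPM in females (log2 fold change 3.39 ± 0.38, adjusted p = 0.0016), against 0.34 ± 0.30 without UVB (adjusted p = 0.57). *Cdhr1*, a cadherin-related gene of photoreceptors, differed by 3.29 ± 0.34 at no more than 3.89 CPM (adjusted p = 4.66e-04).

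Of 21 genes of sex steroid receptors and metabolism, 2 were higher and 6 lower in irradiated males, with a median of -0.066. *Akr1c14* (chr13:4099002-4141081), a 3-alpha-hydroxysteroid dehydrogenase, was at 2.99, 3.13, 3.64 and 11.6 CPM in males and 65.3, 52.1, 32.9 and 43.3 CPM in females (log2 fold change -3.20 ± 0.46, adjusted p = 0.0051), with male 4 above the other males and a fold change of -3.90 without it. Without UVB its fold change was -3.14 ± 0.40 (adjusted p = 0.0047). *Akr1c18*, which inactivates progesterone, stood at 19.4, 31.5, 17.9 and 19.6 CPM and 62.4, 49.6, 59.1 and 37.4 CPM (log2 fold change -1.25 ± 0.21, adjusted p = 0.0056), after -1.86 ± 0.40 without UVB (adjusted p = 0.038). Outside this list, *Acaa1b*, a peroxisomal thiolase gene, was at 7.16, 6.13, 7.92 and 9.85 CPM in males and 24.2, 27.2, 25.7 and 25.1 CPM in females (-1.72 ± 0.12, adjusted p = 3.29e-05), and *Cyp2j7*, a cytochrome P450 gene, differed by -2.37 ± 0.33 (adjusted p = 0.002). Their fold changes without UVB were -2.03 ± 0.26 and -2.95 ± 0.46 (adjusted p = 0.0039 and 0.0075). *Pgr*, the progesterone receptor, was at 0.249, 0.0638, 0.264 and 0.313 CPM in males and 0.566, 1.12, 0.857 and 0.883 CPM in females (log2 fold change -1.89 ± 0.36, adjusted p = 0.008, but 0.38 in the fit of all 16 mice).

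*Hamp2* (chr7:30621797-30624106) and *Hamp* encode hepcidins, peptides best known as the iron hormone of the liver. *Hamp2* was at 4.42, 4.40, 5.54 and 8.86 CPM in males and 56.1, 81.0, 69.0 and 76.6 CPM in females. The fitted log2 fold change was -3.62 ± 0.21 (adjusted p = 2.63e-05). In unirradiated skin it averaged 60.2 ± 29.2 CPM in males and 139 ± 43.5 CPM in females, so that the males were near the female level of irradiated skin before UVB, and the change of the difference was -2.40 ± 0.48 (adjusted p = 0.024). *Hamp* had at most 3 reads in any irradiated male, and its log2 fold change was -3.84 or below when each male was set at 3 reads (adjusted p = 4.66e-04). *H19* (chr7:142129262-142133957), an imprinted long non-coding RNA, was at 239, 244, 232 and 228 CPM in males and 475, 643, 512 and 570.5 CPM in females (log2 fold change -1.23 ± 0.10, adjusted p = 7.83e-05), whereas the sexes averaged 523 ± 86.7 and 502 ± 137 CPM without UVB, and the change was -1.28 ± 0.23 (adjusted p = 0.014). *Wfdc18*, a secreted whey acidic protein family gene, differed by -2.97 ± 0.34 (adjusted p = 8.84e-04) at levels of no more than 2.65 CPM.

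The unirradiated mice place these differences. In unirradiated skin 150 of 16236 autosomal genes were called higher in males (0.924%) and 92 lower (0.567%). With the adjusted p alone, 808 genes (4.98%) were higher and 566 (3.49%) lower. The lower calls past the fold threshold numbered 58, 50 and 56 without unirradiated male 1, 2 or 4. Of the 215 genes called higher in irradiated males, 139 were expressed enough to be tested without UVB, 95 of them had the same direction there and 33 also passed the test, with a median log2 fold change of 1.27 in irradiated and 0.27 in unirradiated skin. The genes were chosen by their fold change in irradiated skin, so that a larger value there, and more changes toward it than away from it, would follow from that choice alone, and these counts and medians are given as a description. Over all genes the difference between the sexes was larger after UVB, in the sense of higher in males, for 460 of 16783 genes (2.74%), and lower for 721 (4.3%). Of these changes 39.0% were thus toward males, but 53.9% with DESeq2 (1034 and 886 genes), 51.4% with its size factors (658 and 623) and 31.6% under upper quartile scaling, so that neither direction can be called the more frequent. Of the genes called, 69 of the 215 genes had a larger and 10 a smaller difference. *Apol8*, an apolipoprotein L gene, was the only gene of the 215 that passed the test with males below without UVB (-1.52 ± 0.36, adjusted p = 0.041) and higher after it (1.08 ± 0.17, adjusted p = 0.0032, but 0.97 without male 1 or with thinned counts). Of the 192 genes called lower, 188 were tested without UVB, 171 had the same direction and 48 also passed the test, with medians of -1.215 and -0.67. The difference was larger after UVB for 23 of these and smaller for 0. These counts rest on single mice, with 157 to 805 and 291 to 988 genes when each of the 16 was left out in turn, the lowest of both without irradiated male 1. The changes given above for *Krt6b*, *Krt16*, *Krt6a*, *Rptn*, *Ptges*, *Slc7a11*, *Col1a1*, *Sparc*, *Adgre4*, *Hamp2* and *H19* kept an adjusted p under 0.1 without any 1 of the 16 mice. Among the genes tested in both states, neither the fold change without UVB nor the change with UVB passed its test for 56 of 139 and 120 of 188, and of the 76 and 4 genes not tested without UVB, 58 and 4 had no change that passed. Across the 15645 genes tested in both states, the fold changes of irradiated and unirradiated skin, which come from different mice, had a Pearson correlation of 0.401 and a Spearman correlation of 0.264, given as a description since genes are not independent.

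**Figure D4:**
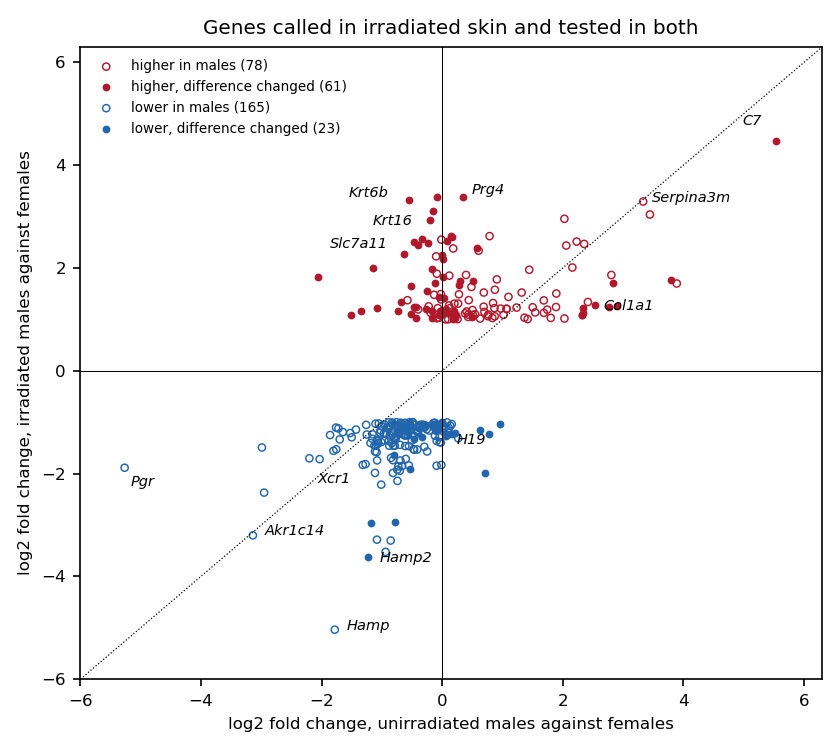
Log2 fold change of males against females in unirradiated skin (x axis) and irradiated skin (y axis) for the genes called in irradiated skin and tested in both, 139 higher and 188 lower. Filled and open points separate genes whose difference changed with UVB (61 and 23) from those where it did not pass that test (78 and 165), and *Krt6b*, *Krt16* and *Prg4* lie high near 0 on the x axis while *C7* and *Akr1c14* lie near the diagonal.

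**Figure D5:**
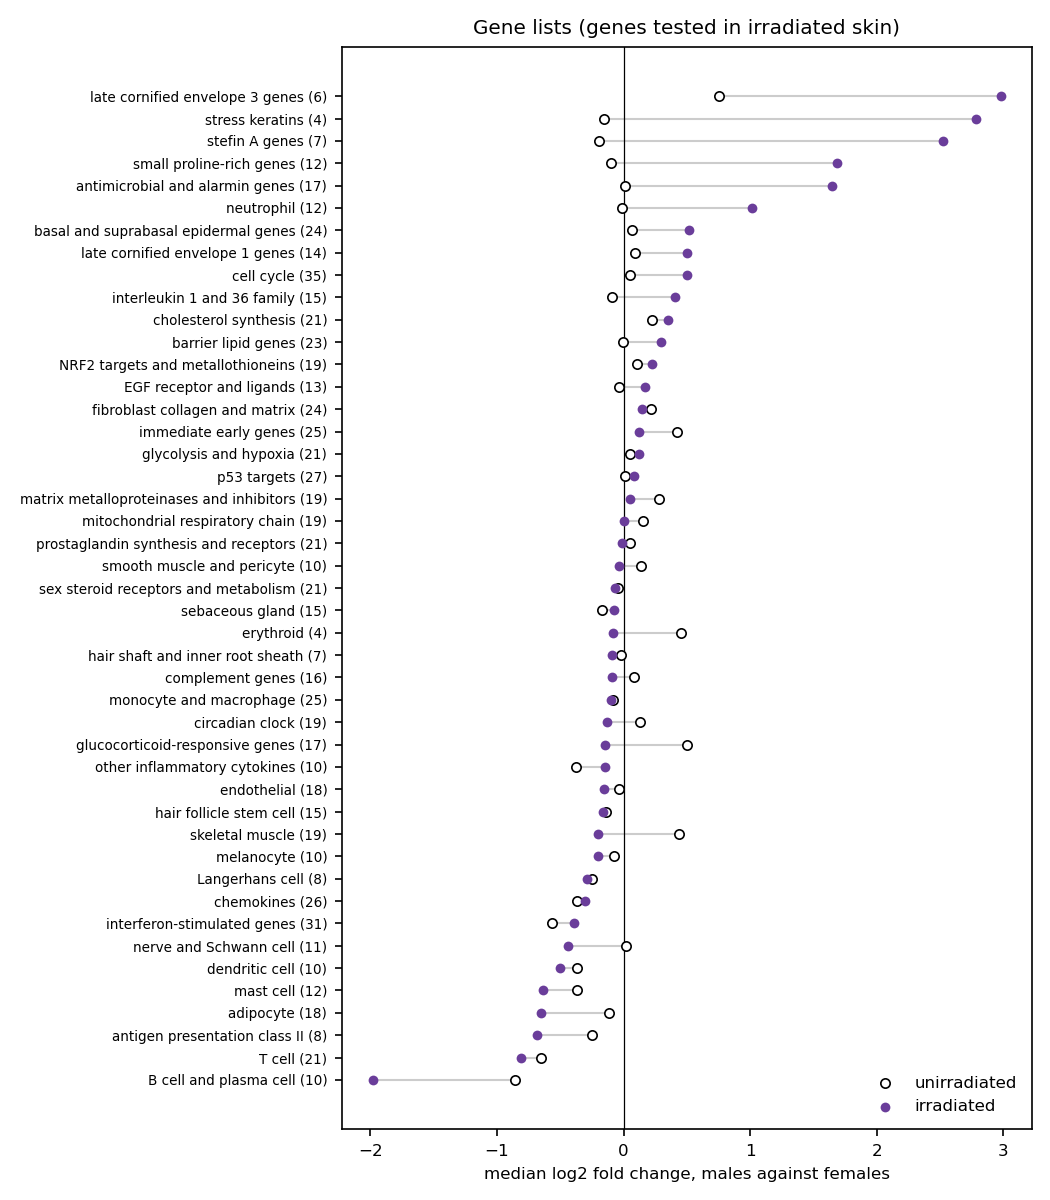
Median log2 fold change of males against females for 45 gene lists in irradiated (filled) and unirradiated (open) skin, each over the genes tested in that state, with the number tested in irradiated skin in brackets. The late cornified envelope 3, stress keratin, stefin A, small proline-rich and antimicrobial lists lie between 1.65 and 2.98 in irradiated skin, and the T cell and B cell and plasma cell lists at -0.81 and -1.98.

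The 5 lists highest in irradiated males had unirradiated medians between -0.20 and 0.76, the last from the late cornified envelope 3 genes, of which 2 of 6 were tested without UVB. Over the genes tested in both states their irradiated medians were 2.06 for the late cornified envelope 3, 2.12 for the stefin A, 1.49 for the small proline-rich and 0.68 for the antimicrobial genes. The T cell, dendritic cell, mast cell and interferon-stimulated lists had unirradiated medians between -0.66 and -0.36, on the same side of 0 as after UVB, while those of class II antigen presentation, adipocytes and nerve were at -0.25, -0.11 and 0.02.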

How the data were processed

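Whole dorsal skin RNA was poly(A)-selected, made into strand-specific libraries and sequenced by the authors, who aligned the reads to GRCm39 with STAR (its version and annotation release are not given in the sources used here) and deposited read counts per gene for 1 mouse per sample. The counts of the strand that matches the kit were used. The other strand held 3.63% to 4.23% of the gene reads, and reads with several alignments were not counted. Gene names for 54749 of 55359 identifiers came from GENCODE M39 (GRCm39), and 610 had none. Rows for unmapped, multiply mapped, ambiguous and unassigned reads were left out of totals and tests.

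Counts were filtered by filterByExpr, scaled by TMM and tested by edgeR 4.0.16 (limma 3.58.1, R 4.3.3) with robust quasi-likelihood fits, in the 8 irradiated mice, the 8 unirradiated mice, and all 16 for the change of the difference with UVB. P-values were adjusted over all genes of a fit (16460, 16834 and 17406), of which only autosomal genes are reported. The limits of the adjusted p and the fold change were those of the study, which set the latter on fold changes shrunken by apeglm, whereas here it was set on fitted fold changes without shrinkage. DESeq2 (1.42.0) and apeglm (1.24.0) were run as alternatives. A floor of 3 counts was used where a group had no more than 3 counts in every mouse, and intervals cover counting and the spread between these mice only. Python 3.11.15 (pandas 2.3.3, numpy 2.4.6, matplotlib 3.10.9) served for tables, promoter searches and figures, and the fits were tested on simulated data.

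Named genes were the 12 with the highest and the 12 with the lowest fold change among genes at a mean of 1 CPM or more whose groups did not overlap, the 8 with the smallest p in each direction above 10 CPM, up to 4 members of each of 45 lists by p and every member called, 11 genes singled out by the study or earlier accounts of these data, and the 6 of each direction with the smallest p for the change. From these the text names a part (some are not reported here), and genes below the filter, those of the differentiation complex outside the lists and *Xist* were named after their values were seen. The members and lists were chosen with earlier results of these data known. Alternatives were other scalings, filters, tests, thresholds, thinned counts, both strands, a fit of all 16 mice, a replicate block and leaving out each mouse. Lists were described by counts and medians, without a set test.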

Additional observations from a re-analysis of the deposited data

Results flagged for a closer look

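A mouse stood far from the other 3 of its group, by Dixon's test at the 95% level, in 20 of 246 sets of 4 irradiated mice tested over the named genes, and chance gives about 1 in 20. Irradiated male 1 was below the other males for *C7* (65.4 against 88.3 to 90.9 CPM). Irradiated male 2 was above the other males for *Saa3* (222 against 77.9 to 91 CPM), *Spink12* (8.23 against 0.678 to 1.4 CPM), *S100a8* (59.5 against 12.9 to 17.2 CPM), *Stfa1* (156 against 64.2 to 70.3 CPM), *S100a9* (79.9 against 23.7 to 27.9 CPM), *Sprr2e* (10 against 3.91 to 4.92 CPM) and *Akr1c18* (31.5 against 17.9 to 19.6 CPM). Irradiated male 3 was above the other males for *Col3a1* (11790 against 9312 to 9677 CPM), *Idi1* (72.3 against 58.5 to 60.8 CPM) and *Hlf* (46.5 against 32.7 to 33.4 CPM). Irradiated male 4 was above the other males for *Zbp1* (21.1 against 16.6 to 16.9 CPM), *Gbp3* (34.4 against 24.7 to 26.1 CPM), *Ighg1* (1.2 against 0.156 to 0.319 CPM) and *Akr1c14* (11.6 against 2.99 to 3.64 CPM). Irradiated female 2 was above the other females for *Saa3* (4.54 against 0.103 to 0.643 CPM), *Cdhr1* (0.505 against 0.154 to 0.214 CPM), *Tbxas1* (14.2 against 9.52 to 10.1 CPM) and *Retnla* (602 against 239 to 291 CPM). Irradiated female 3 was below the other females for *Ccl5* (4.2 against 7.87 to 8.51 CPM).

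The log2 fold change between males and females differed between irradiated and unirradiated skin, by the interaction term in all 16 mice at an adjusted p under 0.1, for 47 of the named genes. It was higher after UVB, and stayed so at that threshold without any 1 mouse, for *Prg4* (3.03), *S100a8* (3.47), *Krt6b* (3.86), *Cdhr1* (4.27), *Krt16* (3.12), *Krt6a* (2.48), *Slc7a11* (2.84), *Rptn* (2.89), *Sprr2e* (4.74), *Slpi* (2.15), *Pdss1* (1.48), *Gsta4* (1.14), *Apol8* (2.58), *Cers3* (0.76), *Il36rn* (0.95) and *Ptges* (0.70). It was lower after UVB, on the same terms, for *Col1a1* (-1.25), *Serpinb6c* (-1.54), *Col1a2* (-1.23), *Sparc* (-1.38), *Dbp* (-0.86), *Actn3* (-1.24), *H19* (-1.28), *Adgre4* (-0.97) and *Hamp2* (-2.40). For the other 22 genes the call was lost without 1 or more of the mice, with changes of *Tmprss11a* (5.16), *Csta3* (6.04), *Tmprss11b* (5.64), *Lce3e* (3.51), *Stfa1* (2.47), *Cstdc5* (2.72), *Mmp8* (1.69), *S100a9* (2.24), *Defb14* (2.16), *Tgm3* (1.22), *Degs2* (2.30), *Krt14* (0.95), *Rrm2* (0.66), *Clock* (0.44) and *Ccl2* (0.86) in the higher direction and *C7* (-1.07), *Mbp* (-0.49), *Lce1m* (-0.92), *Sult1a1* (-1.07), *Serpinb6e* (-0.85), *Ighg1* (-2.18) and *Wfdc18* (-1.80) in the lower. *Tmprss11a*, *Csta3*, *Tmprss11b*, *Sprr2e* and *Lce3e* were near the floor in unirradiated skin, where the size of the change depends on the prior count.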

How the results depend on the processing

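The 215 higher and 192 lower calls of irradiated skin became 250 and 237 with DESeq2, 170 and 108 with apeglm shrinkage, 292 and 297 with genes of at least 1 count, 149 and 110 with at least 10 counts in every mouse, and 2009 and 2034 with no fold requirement, and ran from 187 to 260 and from 168 to 289 without each mouse in turn. In unirradiated skin the 150 and 92 calls ran from 118 to 185 and from 50 to 114 without each mouse, and became 808 and 566 with no fold requirement, while the lower calls were 43 with apeglm, 59 with at least 10 counts and 48 at an adjusted p under 0.05. The change of the difference with UVB, 460 genes higher and 721 lower, became 1034 and 886 with DESeq2, 658 and 623 with its size factors, 384 and 833 with upper quartile scaling, 220 and 481 with at least 1 count, and 164 and 306 at an adjusted p under 0.05, and ran from 157 to 805 and from 291 to 988 without each mouse. The cause of these shifts was not tested, other than that a looser or stricter threshold or filter changes how many genes can pass. The mice of a number share no stated litter or batch, their deviations correlated by -0.0142, 0.128, 0.166 and 0.146, and a replicate block gave 228 and 202 calls in irradiated skin, 142 and 78 in unirradiated skin and 541 and 825 changes, so that the numbers were not taken to pair the mice, although males 2, 3 and 4 correlated best with the female of their own number and male 1 did not.

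Of 2198 refits of the 123 named genes, 2119 kept direction and side of the limit on the adjusted p, 69 no longer passed it and 10 changed sign. Of 1388 refits of the 78 named genes called, 61 in 16 genes lost the call, 31 through the fold limit alone, 27 through the adjusted p alone and 3 through both. All 10 were of *Ccl2*, whose log2 fold change was -0.0056 with at least 1 count, -0.0020 with at least 10, -0.0020 among autosomal genes alone, -0.0052 with thinned counts, -0.00996 without regard to strand and -0.043 with upper quartile scaling, and ran from -0.13 to 0.093 without each mouse in turn, with negative values of -0.00895, -0.13, -0.096 and -0.011 without males 1 and 2 and females 1 and 2. With genes of at least 1 count, 10 genes had adjusted p-values over 0.1, with 0.12 for *Ptgs2*, *Col3a1* and *Krt17*, 0.11 for *Cd8a*, 0.14 for *Il36a*, 0.16 for *Casp14* and *Igha*, 0.24 for *Lce1f*, 0.13 for *Igkc* and 0.15 for *Jchain*. The replicate block moved the adjusted p of *Krt17* to 0.11 and the fold change of *Lox* to 0.99, ended no other call of a named gene, and took *Lce1f* (1.04) and *Cd3e* (-1.03) past the fold limit. Medians of the 45 lists changed sign in 1 or more alternatives for 8 lists, all with medians near 0 (prostaglandin, sebaceous, smooth muscle, erythroid, hair shaft, glucocorticoid, metalloproteinase and respiratory chain lists), and the median of the antimicrobial list ran from 0.68 to 2.41. Depth limits the genes under about 0.498 CPM, the level of 10 reads in a library of median depth.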

Other observations

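The shares of the lists below stand against 12.6% higher and 12.8% lower among all autosomal genes. Of 19 circadian clock genes tested, 1 was higher and 6 were lower in irradiated males with the adjusted p alone (median -0.13, against 0.13 in unirradiated skin). *Clock*, an activator of the cycle, was at 91.99, 87.5, 80.0 and 75.3 CPM in males and 58.0, 60.8, 66.4 and 64.1 CPM in females (log2 fold change 0.42 ± 0.08, adjusted p = 0.0062). *Dbp*, an output factor that the cycle drives, stood at 97.1, 78.7, 92.1 and 88.9 CPM and 128, 132, 109 and 103 CPM (log2 fold change -0.40 ± 0.10, adjusted p = 0.018), after 0.44 ± 0.17 without UVB (adjusted p = 0.18), and *Hlf*, a factor of the same family, differed by -0.44 ± 0.12 (adjusted p = 0.033). The hours at which the skins were taken are not given in the sources used here, and their part in these values was not tested.

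Of 17 glucocorticoid-responsive genes, 2 were higher and 4 lower in irradiated males, with medians of -0.14 after and 0.50 without UVB. Unirradiated males 1 and 2 stood above the other unirradiated mice. The mean log2 level of the list, relative to all 16 libraries, was 0.72, 0.76, -0.26 and -0.08 in the unirradiated males. In the unirradiated females it was 0.11, -0.29, -0.33 and -0.23. *Sult1a1*, a sulfotransferase gene of this list, was at 23.6, 26.5, 30.7 and 37.6 CPM in males and 63.1, 48.5, 36.3 and 51.1 CPM in females (log2 fold change -0.75 ± 0.18, adjusted p = 0.02). Of 13 genes of the EGF receptor and its ligands, 3 were higher and 2 lower, with the receptor gene *Egfr* at 157, 139, 147 and 155 CPM in males and 103, 94.2, 123 and 121 CPM in females (log2 fold change 0.44 ± 0.09, adjusted p = 0.01). Of 27 p53 targets, 8 were higher and 3 lower (median 0.08), and none was past the fold threshold.
Among the remaining lists, those of complement (16 genes tested, 0 higher and 1 lower, *C7* not being on this list), other inflammatory cytokines (10, 0 and 1), Langerhans cells (8, 0 and 5), sebaceous gland (15, 3 and 4), smooth muscle and pericytes (10, 1 and 3), endothelium (18, 0 and 4), erythroid cells (4, 0 and 0), hair shaft and inner root sheath (7, 0 and 2), hair follicle stem cells (15, 0 and 1), immediate early genes (25, 4 and 2), sex steroid receptors and metabolism (21, 2 and 6), glycolysis and hypoxia (21, 5 and 4) and the mitochondrial respiratory chain (19, 0 and 1) had medians between -0.29 and 0.12 in irradiated skin.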
